A study of Rattus norvegicus with 22 samples.

Results

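The genes described here are 10 components of the circadian clock: Arntl, Per1, Per2, Per3, Cry1, Nr1d1, Nr1d2, Dbp, Tef and Bhlhe41. They were taken by name from the RNA-seq gene table, which lists 17172 genes. Of the 10, 9 were listed and all 9 passed the filter on low counts that left 12875 genes for testing. Bhlhe41, a repressor of the clock activators, was not analysed here. RNA-seq was performed on hippocampus from the injured side of adult male Sprague-Dawley rats after lateral fluid percussion (LFP), a model of traumatic brain injury (TBI) in which a pulse of fluid strikes the brain surface through an opening in the skull. Sham rats had the same anesthesia and craniectomy and no percussion. The 14 rats were 2 sham and 4 TBI rats at day 1 after surgery, and 4 sham and 4 TBI rats at day 14. Surgery is thus common to all 4 groups, and no unoperated rats are among them. The labels give no time of day for the collection of tissue, so the clock genes were compared between day 1 and day 14 within sham and within TBI, and then between TBI and sham at each day.

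In mammals the circadian clock is a transcriptional feedback loop that runs in almost every tissue, the hippocampus included. ARNTL, also called BMAL1, pairs with CLOCK or NPAS2 and activates the Per, Cry, Nr1d and Dbp genes through E-boxes, and the PER and CRY proteins then shut this activation down. The nuclear receptors REV-ERB alpha and beta, the products of Nr1d1 and Nr1d2, repress Arntl through ROR response elements, so Arntl transcripts peak when Dbp and Nr1d1 transcripts are low. A sample of tissue taken at a single time therefore carries a phase, and its clock transcripts depend on the hour of collection. Several clock genes, above all Per1, also respond to glucocorticoids and to neuronal activity.

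Total counts per rat ranged from 15065540 to 23743703, and the counts of the 9 clock genes ranged from 113 to 7141 in any rat, so replicate spread rather than counting error set the precision. Levels are given below as CPM, each gene’s count as a share of the library scaled to a common depth, normalised with TMM factors, which correct for differences in library composition. They are not divided by gene length and are compared between rats only, not between genes. Adjusted p values come from the edgeR quasi-likelihood test over all 12875 genes, and a gene is called changed when its adjusted p is under 0.05. The p values rest on the spread between these samples, which each fit takes as shared by its groups for a given gene. In bulk tissue, fewer cells of a type and less RNA per cell cannot be told apart. The tissue label was checked against 7 markers of hippocampal excitatory neurons, of which Fibcd1 was below the filter and the others were present in every group.

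In 3 of the rats the hippocampus carried RNA of choroid plexus, the tissue that makes cerebrospinal fluid. The 10 choroid plexus markers summed to 8854 CPM in sham day 1 rat 1, to 1547 CPM in TBI day 14 rat 2 and to 7595 CPM in TBI day 14 rat 3. In the other 11 rats the sum lay between 6.50 and 21.4 CPM, with 1 or 2 of the 10 markers at 0. Since 1 of the 2 sham day 1 rats is among the 3, calls of clock genes that were lost without these rats are named with the result. For the glucocorticoid-induced and immediate early lists the counts called without these rats are given, and not every lost gene is named. Calls of cell type markers other than those of choroid plexus were not followed in this way. This choice was made after the data were seen.

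Arntl, the activator of the loop, had the smallest spread of the 9 clock genes at day 14, with an SD of log2 CPM of 0.04 in sham and 0.04 in TBI (n = 4 each). Its level was 41.9, 44.3, 42.3 and 41.8 CPM in the 4 sham rats at day 14 and 41.7, 40.3, 43.3 and 41.3 CPM in the 4 TBI rats at day 14. At day 1 it was 41.9 and 65.3 CPM in the 2 sham rats and 48.2, 62.3, 40.3 and 44.1 CPM in the 4 TBI rats. Sham rat 2 and TBI rat 2 at day 1 lay above all other rats, and the remaining day 1 rats lay at or near the day 14 range. The day 1 to day 14 difference was 0.33 on the log2 scale in sham (95% confidence interval −0.05 to 0.71, adjusted p = 0.200) and 0.23 in TBI (−0.09 to 0.54, adjusted p = 0.240), and neither was called. The sham difference rested on which day 1 rat was kept. It was 0.62 (adjusted p = 0.0377) without sham day 1 rat 1 and −0.02 without rat 2.

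The Arntl promoter is shown because it holds the letters of a ROR response element (RRE), the element through which the REV-ERB proteins act. The 250 bases before its start site in RefSeq GRCr8, where the gene is named Bmal1, lie at chr1:176766078-176766327 on the plus strand. Capitals mark the RRE, TAGGTCA, whose first base lies 16 bases before the start site.
Arntl promoter: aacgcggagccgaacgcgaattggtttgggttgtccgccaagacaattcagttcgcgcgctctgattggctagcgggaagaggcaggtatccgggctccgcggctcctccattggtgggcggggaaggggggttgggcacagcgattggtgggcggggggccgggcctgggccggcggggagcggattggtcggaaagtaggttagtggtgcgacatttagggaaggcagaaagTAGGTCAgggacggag
Either form of the RRE searched, TAGGTCA or TGGGTCA on either strand, occurs in 5.62% of the 33469 rat promoters of this length in the same table.

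Cry1, a repressor of the loop, was higher at day 1 than at day 14 in sham and in TBI. Its level was 13.0 and 14.5 CPM in the 2 sham rats at day 1, against 9.05, 7.09, 7.41 and 9.63 CPM in the 4 sham rats at day 14. In TBI it was 15.8, 18.9, 11.4 and 11.7 CPM at day 1 against 7.50, 8.26, 8.35 and 8.29 CPM at day 14. Every day 1 rat lay above every day 14 rat, in sham and in TBI alike. The level was 1.66-fold higher at day 1 in sham (log2 fold change 0.73, SE 0.21, adjusted p = 0.0275) and 1.78-fold higher in TBI (0.83, SE 0.18, adjusted p = 0.00200). The TBI call held when each rat was left out in turn. The sham call was lost without sham day 1 rat 1 (log2 fold change 0.81, adjusted p = 0.0508), without sham day 1 rat 2 (0.65, adjusted p = 0.152), without sham day 14 rat 2 (0.66, adjusted p = 0.0724), without the 3 rats with choroid plexus RNA (0.82, adjusted p = 0.0807) and with the replicate numbers as a block (0.65, adjusted p = 0.0682).

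**Figure D1:**
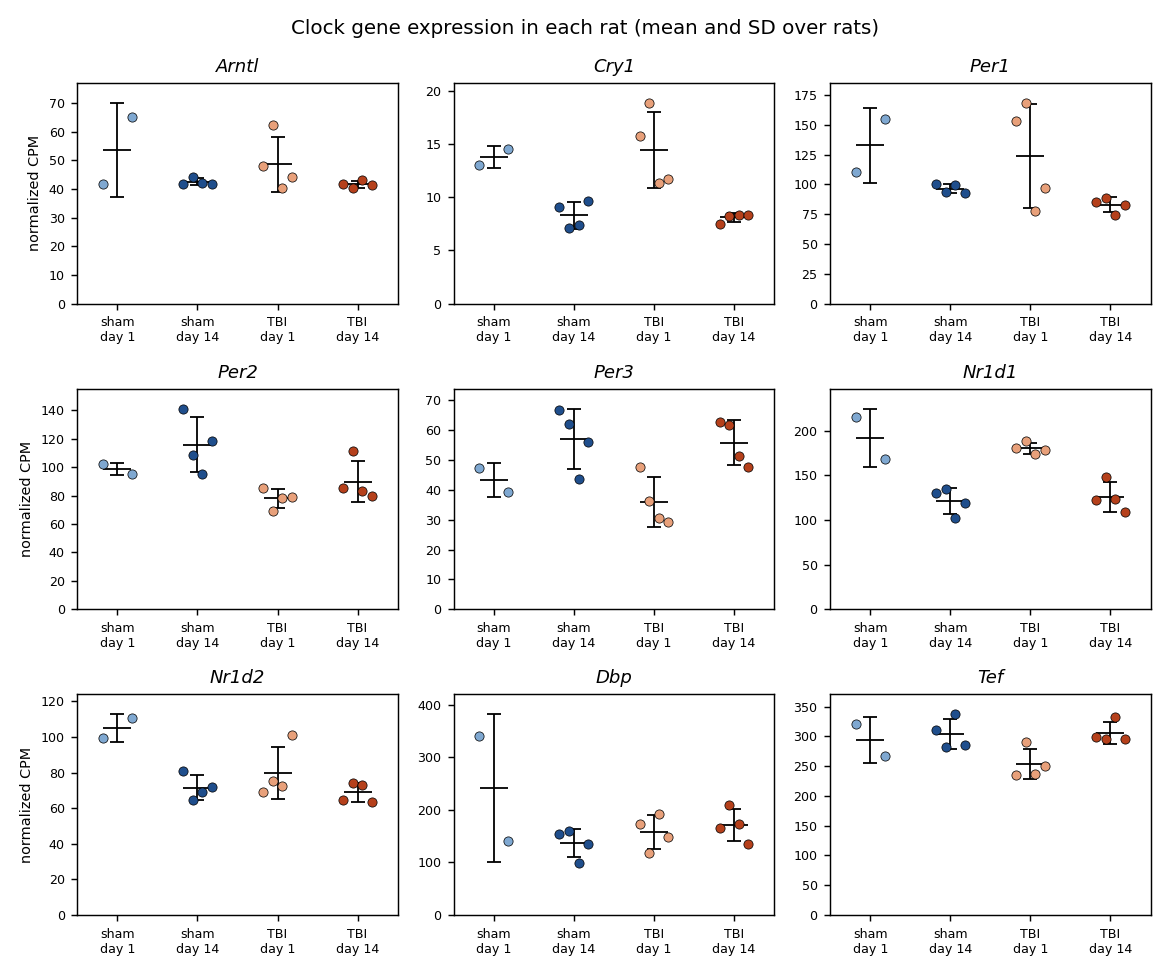
Level of the 9 clock genes in each of the 14 rats, as normalised CPM on the vertical axis from 0, by group. Points are rats, long bars are group means and error bars are SD (n = 2 sham day 1, n = 4 in each other group). Every day 1 value of Cry1 and Nr1d1 lies above every day 14 value, while the 2 sham day 1 values of Dbp lie at 340.4 and 141 CPM.

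The 3 Period genes encode partners of the CRY proteins in repression, and they did not move together. Per1, the Period gene that responds most quickly to light, stress and glucocorticoids, measured 110.4 and 155 CPM in the sham rats at day 1 and 100.02, 93.7, 99.8 and 92.5 CPM in the sham rats at day 14. In TBI it measured 153, 168, 77.7 and 97.1 CPM at day 1 and 85.6, 88.8, 74.2 and 82.8 CPM at day 14. Both sham rats at day 1 lay above the sham day 14 range, TBI rats 1 and 2 at day 1 were high, and TBI rat 3 at day 1 lay within the day 14 range. Per1 was higher at day 1 than at day 14 in TBI (log2 fold change 0.58, SE 0.20, adjusted p = 0.0317). That call was lost in 6 of the 8 fits that left out a TBI rat, down to 0.40 (adjusted p = 0.120) without TBI day 1 rat 2, and also with limma-voom (0.51, adjusted p = 0.0567), with only the groups compared (0.59, adjusted p = 0.0691), with a choroid plexus score as a covariate (0.46, adjusted p = 0.119) and without the 3 rats with choroid plexus RNA (0.53, adjusted p = 0.153). In sham the difference was 0.46 (95% confidence interval −0.05 to 0.97, adjusted p = 0.190), with both day 1 rats above all day 14 rats.

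Per3 moved the other way. It measured 47.7, 36.1, 30.6 and 29.3 CPM in the TBI rats at day 1 and 62.8, 61.6, 51.5 and 47.6 CPM at day 14. The highest day 1 rat and the lowest day 14 rat were level with each other, and the rest did not overlap. Per3 was lower at day 1 than at day 14 in TBI (log2 fold change −0.64, SE 0.17, adjusted p = 0.00928), and this held in all 8 fits that left out a TBI rat. Without the 3 rats with choroid plexus RNA the log2 fold change was the same to 2 decimals (−0.64) and its adjusted p was 0.0510. In sham it measured 47.3 and 39.2 CPM at day 1 and 66.9, 62.2, 43.7 and 56.2 CPM at day 14, a difference of −0.40 (95% confidence interval −0.86 to 0.05, adjusted p = 0.193). With the replicate numbers as a block the sham difference was −0.59 (adjusted p = 0.0184).

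Per2 measured 102 and 95.4 CPM in the sham rats at day 1 and 141, 108.4, 95.5 and 118 CPM in the sham rats at day 14. In TBI it measured 85.4, 69.1, 78.2 and 79.0 CPM at day 1 and 85.3, 111.5, 83.0 and 79.4 CPM at day 14. The groups overlapped between days in sham and in TBI, and neither day difference was called, at −0.23 in sham (95% confidence interval −0.60 to 0.13, adjusted p = 0.356) and −0.20 in TBI (−0.50 to 0.09, adjusted p = 0.257). At day 1 all 4 TBI rats lay below both sham rats. The log2 fold change of TBI over sham was −0.34 at day 1 (adjusted p = 0.164) and −0.37 at day 14 (95% confidence interval −0.66 to −0.07, adjusted p = 0.209), the latter with an unadjusted p under 0.05 from edgeR.

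The Per2 promoter is shown because it holds the letters of a D-box and of an E′-box. It lies at chr9:99496994-99497243 on the minus strand of GRCr8. Capitals mark a D-box, TTATGTAA, the element bound by DBP and TEF, which begins 192 bases before the start site, and an E′-box, CACGTT, a variant of the E-box, which begins 62 bases before it.
Per2 promoter: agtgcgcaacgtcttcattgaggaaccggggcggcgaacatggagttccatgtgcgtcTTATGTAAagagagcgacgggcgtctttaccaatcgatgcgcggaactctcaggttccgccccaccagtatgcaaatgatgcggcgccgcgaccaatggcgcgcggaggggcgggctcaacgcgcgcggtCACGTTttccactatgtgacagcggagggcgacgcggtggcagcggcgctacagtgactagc
The D-box letters TTATGTAA or TTACGTAA occur on either strand in 0.932% of the 33469 promoters and the E′-box letters in 4.07%. No E-box, E′-box, D-box, RRE or CRE (TGACGTCA) letters lay in the 250 bases of Per1, Per3, Nr1d2 or Dbp. The start sites used for Arntl, Per1, Per2, Per3, Tef and Bhlhe41 are not at the outer end of the gene. Bases before any other start site of these genes were not searched, so the elements may lie there.

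Nr1d1, which encodes the repressor REV-ERB alpha, was higher at day 1 in sham and in TBI. Its level was 215 and 169 CPM in the sham rats at day 1 and 129.97, 135, 102 and 119 CPM at day 14. In TBI it was 181, 188, 174 and 179 CPM at day 1, a spread of 5.99 CPM (SD, n = 4), and 122, 148, 124 and 108.7 CPM at day 14. No day 1 rat overlapped with a day 14 rat. Nr1d1 was 1.58-fold higher at day 1 in sham (log2 fold change 0.66, SE 0.15, adjusted p = 0.00931) and 1.44-fold higher in TBI (0.52, SE 0.12, adjusted p = 0.00434). The TBI call held in all 8 fits that left out a TBI rat, and the sham call was lost without sham day 1 rat 1 (0.48, adjusted p = 0.0795) and without the 3 rats with choroid plexus RNA (0.48, adjusted p = 0.0831). The end of Nr1d1 overlaps the end of Thra, a thyroid hormone receptor gene on the opposite strand. The libraries were made with a stranded kit, but whether strand was used in counting is not given in the sources used here, and without it reads of the 2 genes cannot be told apart. Thra differed between the days by 0.28 in sham (95% confidence interval −0.05 to 0.61, adjusted p = 0.216) and by 0.01 in TBI (−0.26 to 0.28, adjusted p = 0.966). Per2 and Cry1 each overlap 1 uncharacterised gene on the opposite strand, for which the same holds.

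The promoters of Nr1d1 are shown because each of its 2 start sites in RefSeq GRCr8 has an E-box or E′-box before it. The upstream promoter lies at chr10:84231813-84232062 and the downstream one at chr10:84229455-84229704, both on the minus strand. Capitals mark an E′-box in the upstream promoter, AACGTG as read on this strand, which begins 174 bases before the start site, and an E-box in the downstream promoter, CACGTG, which begins 191 bases before it.
Nr1d1 upstream promoter: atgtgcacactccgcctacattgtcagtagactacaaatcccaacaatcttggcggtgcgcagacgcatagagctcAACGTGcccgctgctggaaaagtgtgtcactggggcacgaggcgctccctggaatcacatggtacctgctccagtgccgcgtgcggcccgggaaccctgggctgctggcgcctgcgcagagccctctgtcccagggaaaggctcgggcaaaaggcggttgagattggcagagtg
Nr1d1 downstream promoter: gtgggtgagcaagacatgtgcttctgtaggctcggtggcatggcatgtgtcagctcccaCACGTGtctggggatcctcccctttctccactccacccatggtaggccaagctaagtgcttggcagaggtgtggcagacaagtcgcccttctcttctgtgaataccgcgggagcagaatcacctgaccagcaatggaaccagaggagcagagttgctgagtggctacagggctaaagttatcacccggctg
The E-box letters occur in 5.59% of the 33469 promoters. Among the other clock genes they were found before the start sites of Tef and Bhlhe41, and no promoter of Cry1 was matched.

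Nr1d2, which encodes the related REV-ERB beta, measured 99.5 and 110.5 CPM in the sham rats at day 1 against 80.8, 64.7, 69.1 and 71.7 CPM at day 14. In TBI it measured 69.3, 75.1, 72.5 and 101 CPM at day 1 against 64.8, 73.9, 73.1 and 63.7 CPM at day 14. Sham rats at day 1 and TBI rat 4 at day 1 were high, and the other 3 TBI rats at day 1 lay among the day 14 rats. Nr1d2 was 1.47-fold higher at day 1 in sham (log2 fold change 0.55, SE 0.15, adjusted p = 0.0238). The TBI difference was 0.21 (95% confidence interval −0.07 to 0.48, adjusted p = 0.213), and the difference between the TBI and the sham change was −0.35 (−0.78 to 0.09, adjusted p = 0.373). The sham call was lost without sham day 1 rat 2 (0.48, adjusted p = 0.153), without sham day 14 rat 2 (0.51, adjusted p = 0.0650) or rat 4 (0.55, adjusted p = 0.0543), with a choroid plexus score as a covariate (0.53, adjusted p = 0.0509), and without the 3 rats with choroid plexus RNA (0.64, adjusted p = 0.0563).

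Dbp and Tef encode activators of the PAR bZIP family that carry the clock to its output genes through D-boxes. Dbp, among the most strongly cycling transcripts of most tissues, set the 2 sham day 1 rats apart more than any other clock gene, at 340.4 and 141 CPM. It measured 154, 159, 99.3 and 135 CPM in sham at day 14, 173, 118, 192 and 147 CPM in TBI at day 1, and 166, 209.7, 173 and 134 CPM in TBI at day 14. Sham day 1 rat 1 lay above all 13 other rats, and sham day 1 rat 2 lay among them. The day difference in sham was 0.82 (95% confidence interval 0.20 to 1.43, adjusted p = 0.0593) and was not called, while DESeq2 called it (0.81, adjusted p = 0.0353). It was 1.32 (adjusted p = 0.0126) without sham day 1 rat 2 and 0.05 (adjusted p = 0.919) without rat 1, the rat with the highest choroid plexus sum. TBI day 14 rats 2 and 3, with choroid plexus RNA as well, measured 209.7 and 173 CPM, the highest of their group, and the part of this RNA in the Dbp values was not tested. In TBI the day difference of Dbp was −0.12 (−0.63 to 0.40, adjusted p = 0.731).

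Tef, by contrast, stayed within 236 to 337 CPM in all 14 rats. It measured 320.5 and 267 CPM in sham at day 1, 310.5, 283, 337 and 286 CPM in sham at day 14, 236, 289.85, 237 and 249.8 CPM in TBI at day 1, and 298, 295, 333 and 295 CPM in TBI at day 14. All 4 TBI rats at day 1 lay below all 4 at day 14. The difference of −0.27 (95% confidence interval −0.51 to −0.03) had an adjusted p of 0.0656 and was called with DESeq2 and with a minimum of 10 counts in every sample.

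Counted over the 9 clock genes, 3 were called higher and 0 lower at day 1 than at day 14 in sham, against 11.3% of all tested genes higher and 7.88% lower. The 3 were Cry1, Nr1d1 and Nr1d2, and with Dbp 4 of the 9 had an unadjusted p under 0.05, all higher. The count was 0 without the 3 rats with choroid plexus RNA, a fit with 11 rats and 1 sham rat at day 1, and 1 without sham day 14 rat 2. In TBI 3 were called higher (Cry1, Nr1d1 and Per1) and 1 lower (Per3), against a background of 21.9% higher and 17.6% lower. The groups did not overlap for 4 clock genes in sham, all higher at day 1 (Cry1, Nr1d1, Nr1d2 and Per1), against 21.3% of all genes, and in TBI for 2 higher (Cry1 and Nr1d1) and 1 lower (Tef), against 19.1% and 16.7%. The median log2 fold change of the 9 was 0.46 in sham and 0.21 in TBI, beside 0.02 over all tested genes in each.

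The sham and TBI day comparisons share no rats. The sign of the day difference was the same in both for 8 of the 9 clock genes, Dbp being the exception, and for 70.5% of all tested genes. Cry1 and Nr1d1 were called higher in both, and 12.4% of all tested genes were called in the same direction in both. Excitatory neuron markers differed between the days too. Their sum was 2057 to 2319 CPM in sham at day 1 and 2831 to 3326 CPM at day 14, with 1 of 6 tested markers called lower, the glutamate transporter gene Slc17a7 (−0.86, adjusted p = 0.0187). The other markers in sham did not follow it, with Neurod6 at 1.23 (adjusted p = 0.124), Prox1 at 0.91 (adjusted p = 0.222) and a median of 0.12 over the 6. In TBI the sum was 664 to 1771 CPM at day 1 and 2884 to 3383 CPM at day 14, with 4 of 6 called lower and a median of −1.29. Markers of neurons in general summed to 5586 to 8330 CPM in sham at day 1 and 3712 to 5482 CPM at day 14, with 2 of 6 called higher, Rbfox3 (1.24, adjusted p = 0.0110) and Snap25 (0.98, adjusted p = 0.0366). In TBI their sum overlapped between the days and 0 of 6 were called. Markers of other cells differed in TBI as well. At day 1, 5 of 6 oligodendrocyte markers (median −0.97) and 4 of 6 microglia markers (−0.96) were lower. Endothelial markers were higher for 3 of 4 tested (0.94). Astrocyte markers split, 1 higher and 1 lower, as did leukocyte markers, 3 higher and 1 lower. In sham 1 of 6 astrocyte markers was higher, and no oligodendrocyte, microglia, endothelial or leukocyte marker was called. The part of any of these cells in the clock gene differences was not tested. The time since anesthesia and craniectomy, the day of collection, anything collected or prepared on the same day, and the hour of collection cannot be told apart in this design.

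**Figure D2:**
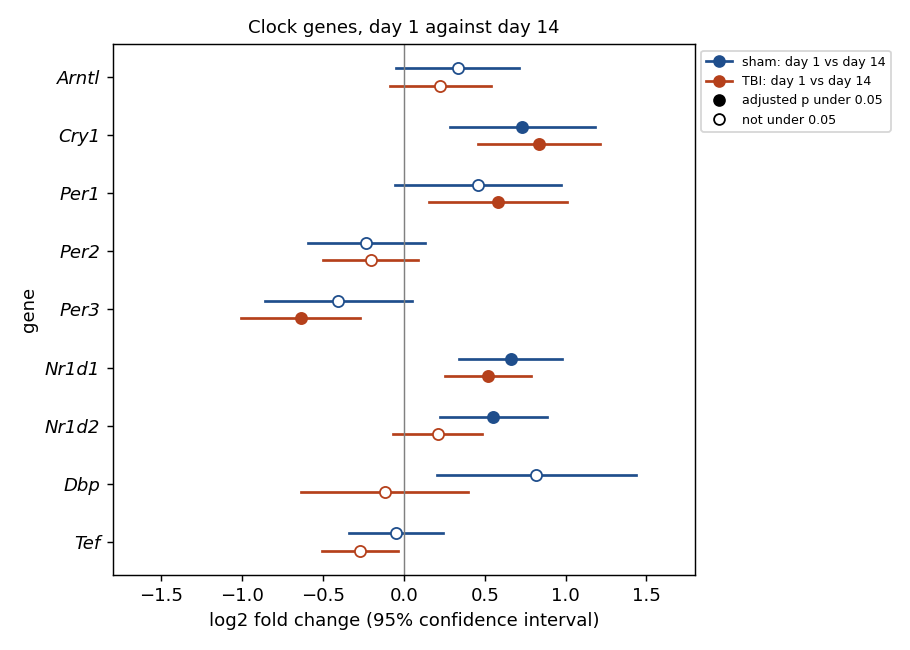
Log2 fold change of the 9 clock genes at day 1 over day 14, in sham (blue) and in TBI (red), with 95% confidence intervals and the vertical line at 0. Filled points have an adjusted p under 0.05, and Cry1 (0.73 and 0.83) and Nr1d1 (0.66 and 0.52) are filled in both.

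Arntl transcripts peak when Dbp and Nr1d1 transcripts are low, so the ratio of each gene to Arntl was also followed within each rat. It is a log2 ratio of CPM values that is read between rats only, given here for Dbp, Nr1d1 and Per1. Not every clock gene ran opposite to Arntl. With the mean of each group removed, Pearson correlation with Arntl over the 14 rats was −0.74 for Dbp and −0.22 for Nr1d1. It was 0.79 for Per1, 0.62 for Cry1, −0.32 for Per2, 0.02 for Per3, −0.01 for Nr1d2 and 0.07 for Tef, a description with no test. For Dbp over Arntl, sham day 1 rat 1 stood at 3.02 and sham day 1 rat 2 at 1.11, on opposite sides of the sham day 14 range of 1.23 to 1.87. For Nr1d1 over Arntl the same rats stood at 2.36 and 1.37, against 1.27 to 1.63 in sham at day 14. In rat 1, then, Dbp and Nr1d1 lay above the sham day 14 range and Arntl within it, and in rat 2 Arntl and Nr1d1 lay above that range and Dbp within it. TBI rat 2 at day 1 likewise had the second highest Arntl level of all rats and the lowest Dbp to Arntl ratio, 0.92, beside 1.74 to 2.25 in the other 3 TBI rats at day 1. For Per1 over Arntl, the 2 sham day 1 rats were close, at 1.39 and 1.25.

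**Figure D3:**
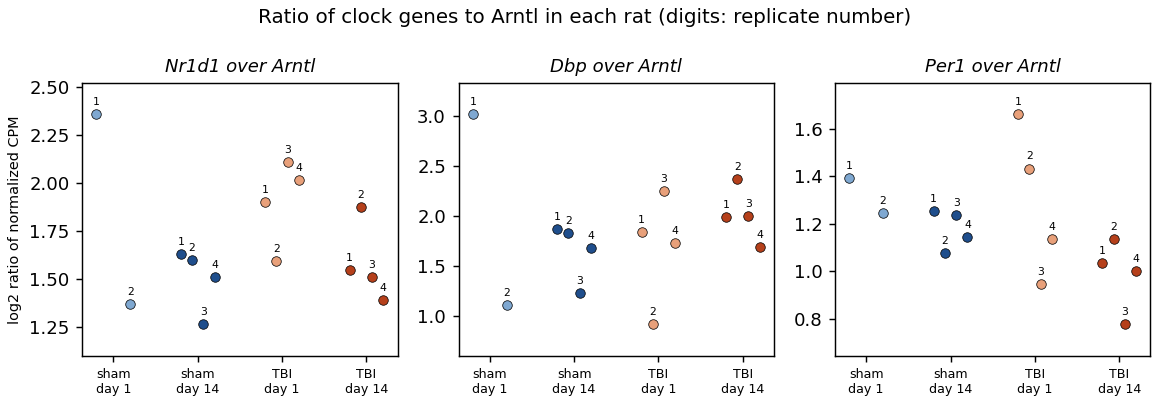
Log2 ratio of Nr1d1, Dbp and Per1 to Arntl in each rat, from normalised CPM, by group, with replicate numbers beside the points and a separate vertical scale in each panel. The 2 sham day 1 rats lie at 3.02 and 1.11 for Dbp and at 2.36 and 1.37 for Nr1d1.

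Injury was compared at each day to ask whether TBI altered the clock genes. At day 1, 0 of the 9 clock genes were called between TBI and sham, while 11.2% of all tested genes were called higher and 7.93% lower. Their log2 fold changes ran from −0.61 (Dbp) to 0.07 (Cry1), and adjusted p values ran from 0.0820 (Nr1d2) to 0.854. The median was −0.21, beside −0.015 over all tested genes, and all 9 values rest on the same 2 sham rats. Nr1d2 alone had an unadjusted p under 0.05 with edgeR, at −0.40 (95% confidence interval −0.73 to −0.07). It was called without TBI day 1 rat 4 (−0.54, adjusted p = 0.0100), the TBI rat with 101 CPM. Dbp was called lower without sham day 1 rat 2 (−1.11, adjusted p = 0.0236), and then rested on sham rat 1 alone, while without the 3 rats with choroid plexus RNA it was 0.14. For 1 clock gene, Per2, the TBI rats all lay below the sham rats, beside 14.1% of all genes. Cell markers differed in this comparison too. Lower were 3 of 6 excitatory neuron markers (median −1.16), 2 of 6 of neurons in general and 2 of 6 of oligodendrocytes. Microglia markers split, 2 lower and 1 higher. Higher were 1 of 6 astrocyte, 1 of 4 endothelial and 4 of 5 leukocyte markers. The part of these cells in the clock gene values was not tested.

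At day 14, 0 of the 9 clock genes were called, beside 4.07% of all tested genes higher and 0.365% lower. Log2 fold changes ran from −0.37 (Per2) to 0.32 (Dbp) with adjusted p values from 0.209 to 0.995, and Per2 alone had an unadjusted p under 0.05. Here 6 of the 9 confidence intervals lay within 0.5 of 0 on either side. Per1 was lower in all 4 TBI rats than in all 4 sham rats, at −0.22 (−0.65 to 0.21, adjusted p = 0.775), beside 5.86% of all genes with the same separation. DESeq2 and limma-voom called as many clock genes between TBI and sham as edgeR did, 0 at each day.

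The change in the TBI effect between the days, which is also the change in the day difference between TBI and sham, was called for 0 of the 9, beside 2.24% of all tested genes higher and 1.44% lower. It was largest for Dbp, at −0.94 (95% confidence interval −1.74 to −0.13, adjusted p = 0.187), the 1 clock gene with an unadjusted p under 0.05. The Dbp value was −1.44 (adjusted p = 0.0348) without sham day 1 rat 2 and −0.01 without the 3 rats with choroid plexus RNA. These comparisons share their groups with the day comparisons above and are not independent of them.

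**Figure D4:**
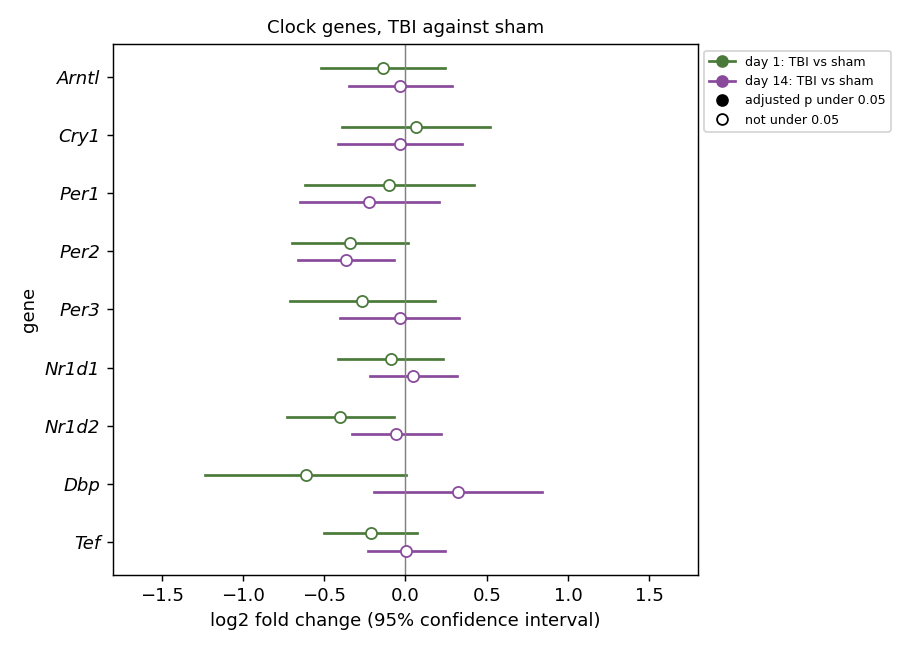
Log2 fold change of the 9 clock genes in TBI over sham at day 1 (green) and day 14 (purple), with 95% confidence intervals and the vertical line at 0. No point is filled, since no adjusted p is under 0.05, and the intervals are widest for Dbp, from −1.23 to 0.01 at day 1.

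Of 18 other genes of the clock loop, 13 were tested and the other 5 were not analysed here. In TBI against sham at day 1, 3 of the 13 were higher and 0 lower, beside 11.2% and 7.93% of all tested genes. Arntl2, a paralog of Arntl, had 33, 38, 20 and 37 counts in the 4 TBI rats at day 1 and at most 5 counts in any other rat. Its level was 1.71, 1.54, 0.917 and 1.66 CPM in TBI at day 1 and 0.269 and 0.0922 CPM in sham at day 1, a log2 fold change of 3.00 (95% confidence interval 1.63 to 4.37, adjusted p = 0.00523). At day 14 the log2 fold change of TBI over sham was −0.38 (adjusted p = 0.898), and the difference between the 2 days was called (3.38, adjusted p = 0.0488). The call at day 1 was lost without sham day 1 rat 2 (adjusted p = 0.0899), and the gene was not tested with a minimum of 10 counts in every sample. The call of the difference was lost in 15 of 22 alternative fits, limma-voom (adjusted p = 0.0633), no filter (0.0541) and the fit without the 3 rats with choroid plexus RNA (0.114) among them.

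Nfil3, a repressor that competes with DBP and TEF for D-boxes, measured 19.4, 18.5, 18.6 and 17.3 CPM in TBI at day 1 against 10.1 and 12.2 CPM in sham. It was higher in TBI by 0.73 on the log2 scale (SE 0.17, adjusted p = 0.00994), with no overlap. This call was lost without sham day 1 rat 1 (0.60, adjusted p = 0.0630), without the 3 rats with choroid plexus RNA (0.59, adjusted p = 0.0846) and with only the groups compared (0.76, adjusted p = 0.0990). Timeless, named for a fly clock gene and better known in mammals for its role in DNA replication, measured 14.0, 8.40, 14.8 and 14.9 CPM in TBI at day 1 against 5.39 and 2.58 CPM in sham, a log2 fold change of 1.71 (adjusted p = 0.00228), which was called in all 15 alternative fits. At day 14, 0 of the 13 were called between TBI and sham, beside 4.07% of all tested genes higher and 0.365% lower. Blood leukocyte markers moved with TBI at day 1 as well. Of 5 tested markers 4 were higher, the sum of the 6 listed ones was 28.4 to 58.5 CPM in sham and 253 to 487 CPM in TBI, and their part in these 3 genes was not tested.

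Between the days, 2 of the 13 other loop genes were higher at day 1 in sham and 6 in TBI, with 0 lower in either. Over all tested genes, 11.3% were higher and 7.88% lower in sham, and 21.9% and 17.6% in TBI. The sham count was 0 without the 3 rats with choroid plexus RNA, 1 without sham day 14 rat 4, and 3 with DESeq2, with the replicate block and without sham day 14 rat 3, and in TBI 1 was lower with DESeq2, limma-voom and the block and without TBI day 1 rat 1 or rat 2. Rorb, a nuclear receptor that acts on the same element as the REV-ERB proteins but as an activator, measured 14.1 and 9.54 CPM in sham at day 1 against 5.64, 3.00, 6.33 and 3.76 CPM at day 14. It measured 10.2, 9.74, 7.75 and 13.0 CPM in TBI at day 1 against 4.51, 4.51, 3.58 and 5.07 CPM at day 14. The groups did not overlap, and Rorb was higher at day 1 by 1.33 in sham (adjusted p = 0.00777) and by 1.20 in TBI (adjusted p = 0.00152). The sham call was lost without sham day 1 rat 1 (1.03, adjusted p = 0.0586) and without the 3 rats (1.03, adjusted p = 0.0781). Bhlhe40, the paralog of Bhlhe41, measured 81.0 and 83.3 CPM in sham at day 1 against 45.2 to 61.9 CPM at day 14, and 82.1 to 126 CPM in TBI at day 1 against 64.0 to 68.3 CPM at day 14. It was higher at day 1 by 0.59 in sham (adjusted p = 0.0223) and by 0.54 in TBI (adjusted p = 0.00565). The sham call was lost without either sham day 1 rat (adjusted p = 0.0579 and 0.110), without sham day 14 rat 4 (0.0628) and without the 3 rats (0.0863), and the TBI call without the 3 rats (0.0747). Npas2, the partner of ARNTL in forebrain, was higher at day 1 in TBI (0.63, adjusted p = 0.0248), a call lost in 4 of the 8 fits that left out a TBI rat, with 0.54 in sham (95% confidence interval 0.01 to 1.06, adjusted p = 0.139). Clock itself, named here after its values were seen, was not called, at 0.63 in sham (−0.22 to 1.48) and 0.42 in TBI (−0.30 to 1.14). The 3 genes raised by TBI at day 1 make up the rest of the 6.

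**Figure D5:**
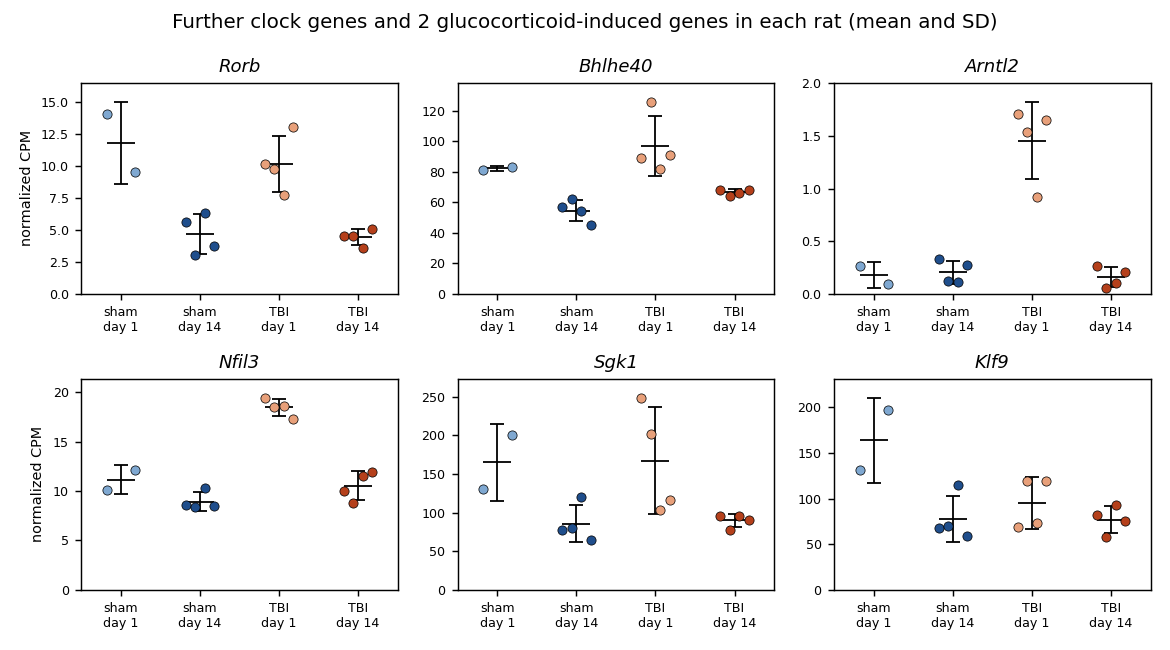
Level of 4 other clock loop genes (Rorb, Bhlhe40, Arntl2 and Nfil3) and of the glucocorticoid-induced genes Sgk1 and Klf9 in each rat, as normalised CPM by group, with group means and SD (n = 2 sham day 1, n = 4 in each other group). Rorb and Bhlhe40 are higher at day 1 in sham and TBI, while Arntl2 rises to 0.917 to 1.71 CPM in TBI at day 1.

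Output genes of the clock were read from a list of 5, of which 4 were tested and Tspan4 was below the filter. Nampt, which encodes the rate-limiting enzyme of NAD salvage, was higher at day 1 in sham (0.75, adjusted p = 0.0330) and in TBI (0.89, adjusted p = 0.00207), and no groups overlapped. The sham call was lost without sham day 1 rat 2 (0.50, adjusted p = 0.289) and without sham day 14 rat 1, 2 or 4 (adjusted p from 0.0684 to 0.0813). Usp2, a deubiquitinase gene driven by the clock, measured 58.8 and 47.4 CPM in sham at day 1 and 31.3, 42.0, 29.7 and 36.0 CPM in TBI at day 1. It was lower in TBI at day 1 by a log2 fold change of −0.61 (adjusted p = 0.0177), with 0.23 at day 14 (95% confidence interval −0.06 to 0.52). That call was lost without sham day 1 rat 1 (−0.45, adjusted p = 0.121), without the 3 rats with choroid plexus RNA (−0.46, adjusted p = 0.126), with the choroid plexus covariate (−0.48, adjusted p = 0.0574) and with only the groups compared (−0.58, adjusted p = 0.176). The difference between the days was called, at −0.84 (adjusted p = 0.0417), and lost in 14 of 22 alternative fits, to −0.61 (adjusted p = 0.214) without the 3 rats and −0.68 (adjusted p = 0.116) without sham day 1 rat 1. Lonrf3 was lower at day 1 in sham (−0.57, adjusted p = 0.0375), a call lost in 8 of 15 alternative fits, those without either sham day 1 rat (adjusted p = 0.146 and 0.102) and without the 3 rats (0.196) among them.

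Because Per1 and other clock genes respond to glucocorticoids and to neuronal activity, lists of genes induced by each were read beside them. Of 11 glucocorticoid-induced genes, 10 were tested and Plin4 was not analysed here. In sham 7 of the 10 were higher at day 1 than at day 14 and 0 lower, beside 11.3% and 7.88% of all tested genes. These ran from 0.69 for Tsc22d3, the leucine zipper GILZ (adjusted p = 0.00563), to 1.40 for Pdk4, a kinase of pyruvate dehydrogenase (adjusted p = 0.0444). Sgk1, a kinase induced by glucocorticoids, measured 130.1 and 201 CPM in sham at day 1 against 78.0, 79.9, 120.2 and 64.4 CPM at day 14 (0.95, adjusted p = 0.0444), and Fkbp5, a chaperone of the glucocorticoid receptor, differed by 0.37 (adjusted p = 0.156). Sgk1 lost its sham call in 7 of 15 alternative fits and Pdk4 in 8 of 15. The fit without the 3 rats with choroid plexus RNA was among them for both, at 1.24 for Sgk1 and 1.63 for Pdk4. The count of 7 was not stable. It was 1 without sham day 1 rat 2 and without sham day 14 rat 2 or rat 4, 2 without sham day 14 rat 1, with the replicate block and without the 3 rats with choroid plexus RNA, 3 with the choroid plexus covariate and 4 with limma-voom.

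In TBI 7 of the 10 glucocorticoid-induced genes were higher at day 1 as well, beside 21.9% of all tested genes. They ran from 0.72 for Sult1a1, a sulfotransferase (adjusted p = 0.00715), to 1.61 for Cdkn1a, the cell cycle inhibitor p21 (adjusted p = 0.00246). Fkbp5 (0.77, adjusted p = 0.00115) and Sgk1 (0.90, adjusted p = 0.0141) were among them. The genes were not all the same as in sham: Fkbp5 and Nfkbia were called in TBI only, Klf9 and Tsc22d3 in sham only. A call in 1 group only is not a difference between the groups. The difference between the TBI and the sham change was called for 0 of the 10, beside 2.24% of all tested genes higher and 1.44% lower. Pdk4 lost its TBI call in 11 of 17 alternative fits. The count in TBI was 6 with limma-voom, with the replicate block and with only the groups compared, and 5 with the choroid plexus covariate. The count was 5 without the 3 rats with choroid plexus RNA, a fit in which Sgk1 (adjusted p = 0.1004) and Pdk4 (adjusted p = 0.168) lost their calls. Between TBI and sham, Tsc22d3 alone was called at day 1 and was lower (−0.91, adjusted p = 0.000435), beside 11.2% of all tested genes higher and 7.93% lower. None of the 10 was called at day 14, beside 4.07% of all tested genes higher and 0.365% lower. With DESeq2 and without TBI day 1 rat 4, 2 were higher and 2 lower at day 1. The median log2 fold change of the 10 between the days was 0.79 in sham and 0.78 in TBI. The part of glucocorticoids in the day differences of the clock genes was not tested.

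The 11 immediate early genes, which neuronal activity induces, split by direction under injury. In TBI against sham at day 1, 3 were higher and 3 lower, beside 11.2% and 7.93% of all tested genes. Fos rose most (2.03, adjusted p = 0.000600) and measured 36.3, 46.4, 31.3 and 21.4 CPM in TBI against 8.68 and 7.88 CPM in sham. Arc, a gene of synaptic plasticity, fell most (−1.79, adjusted p = 0.00124), and Egr1 was lower too, at −1.36 (adjusted p = 0.00873). In the same comparison 3 of 6 excitatory neuron markers were lower and 4 of 5 leukocyte markers higher. The part of these cells in the values of the 11 genes was not tested. In sham 1 of the 11, Egr1, was higher at day 1 than at day 14 (1.41, adjusted p = 0.00946), beside 11.3% of all tested genes. In TBI 5 were higher, led by Fos (1.33), and 2 lower, led by Arc (−1.43), beside 21.9% and 17.6% of all tested genes. At day 14 none of the 11 was called between TBI and sham, beside 4.07% of all tested genes higher and 0.365% lower. With DESeq2, with only the groups compared and without TBI day 14 rat 3, 1 of the 11 was higher. The counts in TBI were 1 higher and 1 lower without the 3 rats with choroid plexus RNA, and those at day 1 were 1 higher and 2 lower without sham day 1 rat 2 and with only the groups compared. Egr1 lost both calls without sham day 1 rat 2 (adjusted p = 0.125 between the sham days and 0.167 against TBI), while Fos and Arc kept theirs at day 1 in all 15 alternative fits.

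Genes whose level followed that of a clock gene from rat to rat were sought among all tested genes, with the mean of each group removed and Pearson correlation over the 14 rats as the measure of likeness. For Arntl these were Tmem63c (r = 0.95), Slc39a14 (0.94) and Zfp398 (0.91). For Nr1d1 they were Zfand2b (0.93), Fat2 (0.90) and Dysf (0.88), and for Dbp they were Itgb1bp1 (0.95), Rpl11 (0.94) and Tpm2 (0.94). No clock gene is among the 9, since the search left the clock genes out. The rats did not weigh equally in these values. The SD of log2 CPM of Arntl was 0.45 in sham and 0.27 in TBI at day 1, and 0.04 in each at day 14. That of Dbp was 0.90 in sham at day 1 and 0.26 to 0.31 in the other groups. With 2 rats in sham at day 1, their centred values are equal and opposite. The values are the highest of 12875 genes, all from the same 14 libraries, and are given as a description with no test.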

How the data were processed

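Polyadenylated RNA from 14 hippocampi was sequenced as 50-base single-end reads from stranded libraries. Per the study's methods and processing notes, the authors aligned the reads to rn5 with STAR 2.4.2a after FastQC 0.11.8 and featureCounts 1.5.0 assigned them to UCSC gene annotations. The deposited counts are whole numbers without normalization, and the authors' limma-voom results were not used. H3K4me3 peak lists carry rn5 positions, for which no annotation was used here, and were left out. Samples were grouped by their labels.

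The quasi-likelihood test of edgeR 4.0.16 was run in R 4.3.3 on a single fit to the 14 samples, each group having its own mean, with TMM normalization and the default low-count filter. Tests were two-sided, with Benjamini-Hochberg adjustment over 12875 genes. Log2 CPM used a prior count of 2. All members were named whatever they did, and from the other lists the genes called, or the largest and smallest changes among them. The members and lists were chosen with earlier results of these data known. Alternatives were limma-voom (limma 3.58.1), DESeq2 1.42.0, median-of-ratios factors, no filter, a minimum of 10 counts in every sample, a replicate block, a choroid plexus score as covariate, only the groups compared, and each sample left out. A fit without the 3 samples with choroid plexus markers was added after seeing the data. The tests were checked on simulated data with the same spread per gene in all groups, which leaves out the wider spread at day 1. Replicates differed beyond counting noise (chi-squared divided by its degrees of freedom, 12.9 to 168 in 19 pairs). Promoters are the 250 bases before each start site in RefSeq GRCr8, 1-based, and motifs were searched on both strands. Of the table's gene names, 25 have the form of dates and were kept. Figures were drawn in Python 3.11.15 with matplotlib 3.10.9.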

Additional observations from a re-analysis of the deposited data

Results flagged for a closer look

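The clock genes, the other loop genes and the output genes gave 78 sets of 4 values, 1 set per gene and group of 4 rats. In these sets 9 values lay farther from the rest of their set than Dixon's 95% limit for 4 samples allows. Chance alone gives about 1 such value in 20 sets. The sets are not independent, since the same rats recur from gene to gene. Among the clock genes, Cry1 in TBI day 14 rat 1 was low at 2.93 log2 CPM (2.926), with the other 3 rats between 3.06 and 3.08. Tef in TBI day 14 rat 3 was high at 8.38 log2 CPM (8.379), with the others between 8.20 and 8.22. Both rats stood apart by little in absolute terms, at 7.50 CPM for Cry1 and 333 CPM for Tef.

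Sham day 14 rat 3 was the highest of its group for 3 loop genes: Nfil3 at 3.383 log2 CPM (others 3.08 to 3.12), Btrc, a ubiquitin ligase subunit that targets PER proteins, at 6.015 (others 5.45 to 5.52), and its paralog Fbxw11 at 7.285 (others 6.92 to 6.96). Timeless was lowest in TBI day 1 rat 2, at 3.089 (others 3.81 to 3.91), and highest in TBI day 14 rat 4, at 2.663 (others 2.16 to 2.24). Csnk1e, a kinase of PER proteins, was lowest in TBI day 14 rat 2, at 5.601 (others 5.75 to 5.77). Arntl2 was lowest in TBI day 1 rat 3, at 0.03029 (others 0.72 to 0.86), a value that rests on 20 counts.

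The effect of TBI differed between day 1 and day 14 for 2 genes of these lists, by the edgeR test of the difference. It was 3.3797 for Arntl2 (log2 scale, 95% confidence interval 1.49 to 5.27) and −0.84164 for Usp2 (−1.30 to −0.39). For Arntl2 it rests on 5 and 2 counts in the sham day 1 rats. Neither call was stable: that of Arntl2 was lost in 15 of 22 alternative fits and that of Usp2 in 14 of 22, both without the 3 rats with choroid plexus RNA (adjusted p = 0.114 and 0.214), with the choroid plexus covariate (0.140 and 0.200) and with limma-voom (0.0633 and 0.0549).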

How the results depend on the processing

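Each fit, the main one included, took 1 spread per gene for all its groups. Replicate pairs differed more at day 1. Chi-squared divided by its degrees of freedom was 51.5 to 168 in TBI and 123 in sham at day 1. At day 14 it was 16.2 to 51.1 in TBI and 12.9 to 44.3 in sham. Only the fit limited to the groups compared kept the day 14 spread out of TBI against sham at day 1. Sham day 1 held 2 rats, so fits that left 1 out assumed that the other varied like the remaining groups. The count of clock genes higher at day 1 in sham fell from 3 to 0 without the 3 rats with choroid plexus RNA and ranged from 1 to 3 over single rats left out. The count lower in sham was 1 (Per3) with the replicate block. In TBI the count lower at day 1 was 2 with DESeq2 and with at least 10 counts, 0 without the 3 rats, and 1 to 2 over single rats left out, and the count higher was 2 to 3. For TBI against sham at day 1 the count lower ranged from 0 to 1 over single rats left out, and for the difference between the days from 0 to 1. What same-numbered rats share is not given in the labels. The paper states that its expression trajectories were corrected for a batch effect, without naming the batches. Of 18 same-numbered pairs, 5 deviated together with a correlation over 0.1 (range −0.35 to 0.24). The block changed 2 clock gene calls in sham, Cry1 (lost) and Per3 (gained).

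Log2 fold changes that were not called changed sign, the largest move being that of Dbp at day 1, from −0.61. With the choroid plexus covariate they were 0.085 for Arntl, −0.056 for Nr1d1 and −0.071 for Tef (TBI against sham, day 14), 0.033 for Nr1d1 (day 1), 0.17 for Dbp (TBI days), and 0.088 for Nr1d1 and −0.11 for Per1 (difference between the days). Without the 3 rats they were −0.021 for Cry1, 0.14 for Dbp and 0.082 for Nr1d1 (day 1), −0.051 for Nr1d1 and −0.012 for Tef (day 14), 0.043 for Dbp (TBI days), and 0.13 for Nr1d1 and −0.16 for Per1 (difference). With only the groups compared they were 0.0044 for Arntl, 0.0021 for Cry1 and 0.0031 for Per3 (day 14), and with the replicate block 0.00041 for Nr1d1 and 0.043 for Per1 (day 1). The cause was not tested.

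Over single rats left out, sign changes gave these ranges. In sham days Arntl ran from −0.022 to 0.62 and Tef from −0.19 to 0.077. At day 1 Arntl ran from −0.42 to 0.22, Cry1 from −0.089 to 0.17, Dbp from −1.11 to 0.15, Nr1d1 from −0.26 to 0.094 and Per1 from −0.32 to 0.17. At day 14 Cry1 ran from −0.10 to 0.047, Nr1d1 from −0.039 to 0.11, Nr1d2 from −0.10 to 0.0080, Per3 from −0.14 to 0.049 and Tef from −0.027 to 0.060. For the difference between the days Arntl ran from −0.39 to 0.25, Cry1 from −0.055 to 0.20, Nr1d1 from −0.31 to 0.044, Per1 from −0.10 to 0.39 and Per2 from −0.081 to 0.15.

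Over all genes, calls at day 1 went from 1437 higher and 1021 lower to 557 and 94 with only the groups compared. At day 14 they went from 524 and 47 to 903 and 205 with only the groups compared, with 119 lower in DESeq2 and 18 without the 3 rats. For the difference they went from 288 and 186 to 600 and 453 with DESeq2, 178 and 100 with limma-voom, 126 and 65 with the covariate, and 189 and 87 without the 3 rats. In sham days the calls were 1450 and 1014, and the 1014 lower became 600 without the 3 rats. Over single rats left out, sham days gave 673 to 1490 higher and 270 to 1208 lower, day 1 gave 555 to 1677 and 367 to 1467, day 14 gave 375 to 530 and 21 to 46, and the difference gave 126 to 430 and 78 to 300. The lowest sham day and day 1 counts came without sham day 1 rat 2.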
